A study of Danio rerio with 6 samples.

Results

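The normal adult liver of zebrafish was described from the 3 libraries labelled wild type AB, out of 6 libraries in the series. The members were chosen by their genotype label alone. AB is a laboratory strain of zebrafish, and the labels list no mutated allele and no treatment for these fish. The other libraries of the series came from capn3b-/- livers and are not compared here. The labels give the stage as adult and give neither an age, a sex nor the number of fish behind a library. Nothing in them says that the replicates came from separate animals, so the spread between libraries given below may be partly technical.

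RNA was taken from dissected livers, so each value is a mixture over the cells of the organ, and fewer cells of a type cannot be told apart from less RNA per cell. Expression was given as FPKM, which is reads divided by gene length and by sequencing depth, so that levels of different genes can be set side by side. Wild type replicates 1, 2 and 3 are called libraries 1, 2 and 3, and lists of 3 values follow that order. Errors are standard deviations over these libraries (SD, n = 3). The reads behind the depth scale numbered 19492592, 17268036 and 16858409. The gene mutated in the other group, capn3b, had 0 reads in every wild type library, which at a limit of 3 reads allows up to 0.0514, 0.058 and 0.0594 FPKM, and its span overlaps that of znf106b. Its paralog capn3a had 0, 3 and 1 reads.

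The liver is the main source of blood plasma proteins in vertebrates. Hepatocytes make lipoproteins, clotting factors, complement and metal and vitamin carriers, and they store and release glucose, break down amino acids, oxidise fat and make bile. Most of the cells of the organ are hepatocytes, which share it with biliary cells, sinusoidal endothelium, stellate cells and immune cells. In zebrafish, tissue of the exocrine and endocrine pancreas lies close to the liver in the body cavity.

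In a list of hepatocyte genes, 18 of 18 were found at a mean of at least 10 FPKM, against 2910 of all 23354 genes. The list was chosen with earlier results of these data known, so it describes the liver and cannot check the tissue label. Their summed level was 171572, 184513 and 182320 FPKM, or 30.6% ± 0.726 of all FPKM. The median of the list was 3034 FPKM. The highest library was 1.08 times the lowest. The list holds fabp10a, tfa, apoa1b, apoa2, fetub, ahsg1, serpina1, serpina1l, fga, fgb, fgg, ambp, hpda, cp, hnf4a, rbp4, apobb.1 and ttr, several of which are described below.

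Of 23354 genes in the table, 21554 were above 0 in at least 1 library and 1800 were at 0 in every one. At least 1 FPKM in every library was reached by 9669 genes, at least 10 FPKM by 2490, at least 100 FPKM by 474 and at least 1000 FPKM by 70. Output was concentrated in few genes: 39, 40 and 42 genes made up 50% of the FPKM of a library. The 10 most abundant genes alone took 34.04%, 34.15% and 34.56%, a mean of 34.2% ± 0.274, and the highest library was 1.02 times the lowest.

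The most abundant transcript was apoa1b (ENSDARG00000101324, GRCz11 chr15:31389-33853, minus strand), which encodes apolipoprotein A-I, the main protein of high-density lipoprotein. It stood at 51618, 50987 and 60443 FPKM, 9.28% of the total, and library 3 was the highest. Next came apoa2 (ENSDARG00000015866, chr16:24063946-24065322, plus strand), another high-density apolipoprotein, at 32866, 36139 and 35333 FPKM. The third was tfa (ENSDARG00000016771, chr2:17112044-17123598, plus strand), the iron carrier transferrin, at 26458, 22401 and 23251 FPKM. The SDs were 5287, 1705 and 2139 FPKM. These genes kept this order in every library, but in library 2 the next gene by mean stood above tfa.

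That gene was fabp10a (ENSDARG00000038439, chr16:52626257-52631239, plus strand), the liver fatty acid binding protein whose promoter is widely used to label zebrafish hepatocytes. Its level was 16669, 30427 and 21407 FPKM, so library 2 was 1.83 times library 1. Next by mean, apoc1 (ENSDARG00000092170, chr16:24057094-24058689, plus strand), a small apolipoprotein of circulating lipid particles, was steadier at 18506, 17964 and 19171 FPKM. After it, fetub, a plasma protein of the fetuin family, stood at 11693, 12902 and 11566 FPKM.

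The rest of the 20 most abundant genes lay between 3442 and 11267 FPKM on average. They included 5 genes of the mitochondrial genome, mt-co1, mt-co2, mt-co3, mt-cyb and mt-atp6, which encode subunits of the respiratory chain and of ATP synthase. Others were the glycolytic enzyme gapdh, the lipid peroxidase gpx4a, the protease inhibitor serpina1l, the fibrinogen chains fga and fgb, and apoa1a. The least variable of the 20 was fga, at 3614, 3654 and 3689 FPKM, a highest over lowest ratio of 1.02. With median scaling of the libraries its ratio was 1.09, above the 1.07 of apoc1, so this rank depends on the scaling. The most variable was cbln8, of the cerebellin family, at 6360, 4698 and 2806 FPKM, a ratio of 2.27. Among 83 genes with a mean of at least 1000 FPKM it was the only one to differ at least 2-fold between libraries. The gene zgc:172246 is named leg1.1 in current nomenclature and stood at 2886, 3893 and 4024 FPKM.

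**Figure D1:**
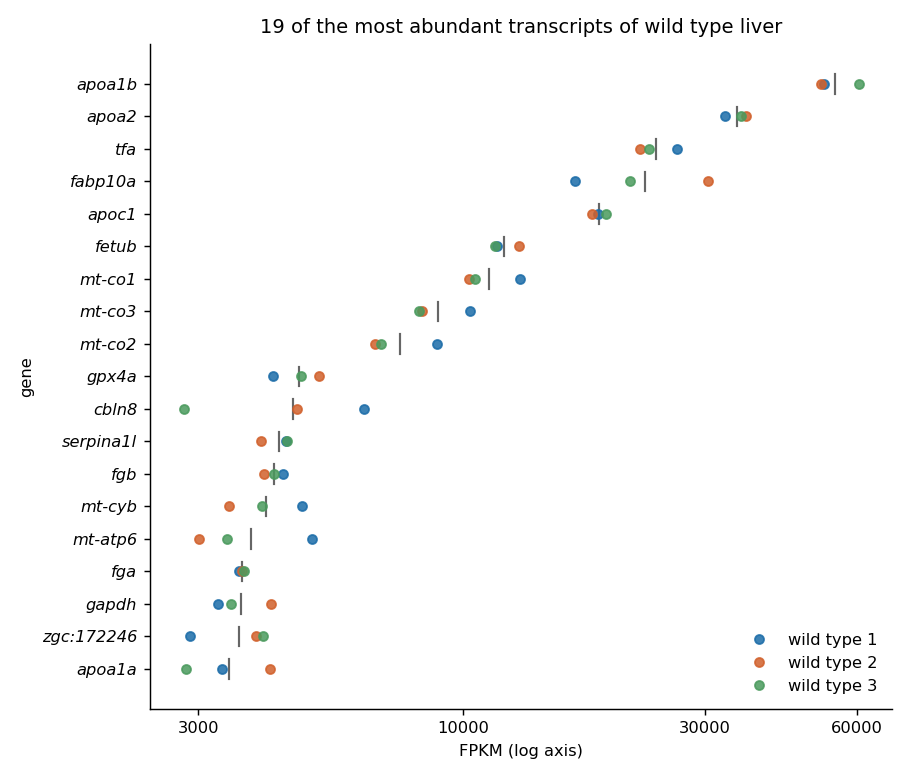
Level of 19 of the 20 genes with the highest mean FPKM in each of the 3 wild type libraries (coloured points) and their mean (vertical bars), on a log axis. Points of fga nearly coincide, while those of cbln8 spread from 2806 to 6360 FPKM and those of fabp10a from 16669 to 30427.

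Several of these abundant genes are neighbours. On chr16:24045712-24076129 (GRCz11), 30418 bases hold the apolipoprotein genes apoeb, apoc1, apoc4, apoa2 and apoc2. These 5 genes gave 9.45%, 9.47% and 9.82% of all FPKM, a mean of 9.58% ± 0.209. The fetuin genes ahsg1 and fetub on chr22:37920796-37944777 gave 2.53% ± 0.138, and fgb and fga on chr1:9367652-9387428 gave 1.35% ± 0.0516. The adjoining serpina1l and serpina1 on chr20:10550785-10560171 gave 1.23% ± 0.0468, and the leg1 pair on chr20:1377738-1400179 gave 0.898% ± 0.115. The neighbours were picked after their levels had been seen.

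Genes of the secreted protein lists, 163 in all, took 38.2%, 36.3% and 38.2% of FPKM, a mean of 37.6% ± 1.07. Taken instead from the deposited gene ontology annotation of the extracellular region or space, an alternative chosen after seeing the data, the secreted share was 20.9%. Genes of the metabolic lists, 347 in all, took 10.9%, 13.6% and 11.7%, a mean of 12.1% ± 1.4. The 83 ribosomal protein genes took 9.17%, 11.4% and 10.03%, and the 16 mitochondrially encoded genes took 8.61%, 6.25% and 6.8%. Counted as reads not scaled to length, the mitochondrial share was 4.4% in place of 7.22%. Library 1 was therefore the lowest of the 3 for metabolic and ribosomal genes and the highest for mitochondrial genes, and library 2 was the reverse of it in each. The metabolic genes include the fatty acid synthesis and storage list, 89.3% of it fabp10a. That list took 3.4%, 5.57% and 4.07%, so much of the metabolic difference between libraries lies in fabp10a. Protein coding genes together made up 99.1% ± 0.0586.

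**Figure D2:**
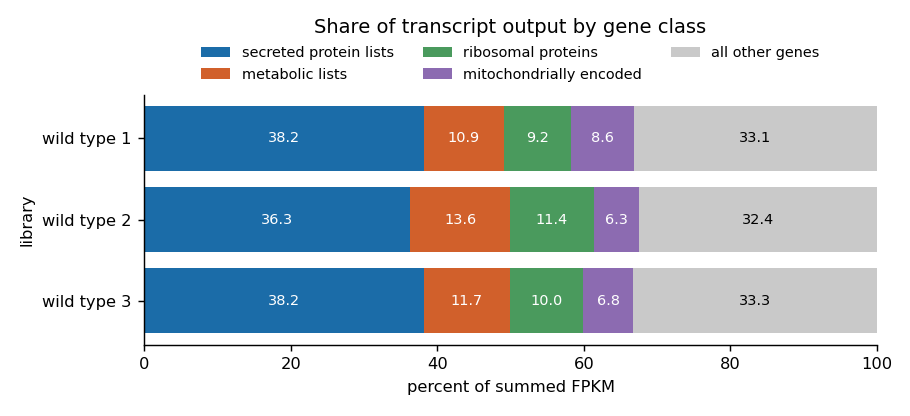
Percent of summed FPKM in each wild type library taken by the secreted protein lists, the metabolic lists, ribosomal proteins, mitochondrially encoded genes and all other genes. Secreted proteins are the widest class named, at 36.3% to 38.2%, and library 2 has the widest metabolic and ribosomal segments.

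Apolipoproteins and the enzymes that act on lipoproteins led the secreted lists with 20.1% ± 1.03 of FPKM, of which apoa1b alone was 46.2%. Of 24 genes found, 18 reached 10 FPKM, against 2910 of all 23354 genes. Of these 18, 0 differed at least 2-fold between libraries, where 9.18% of all genes of that level did. Over all genes that share fell with level, from 9.71% at 10 to 100 FPKM to 7.84% at 100 to 1000 FPKM and 1.2% above. The median of the 24 genes was 176 FPKM. The low-density lipoprotein gene apobb.1 stood at 1426, 947 and 851 FPKM, highest in library 1. Another apolipoprotein gene, apoeb, whose product directs lipoprotein particles to receptors, varied most of the list at 1214, 624 and 1083 FPKM, a ratio of 1.95.

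Plasma carriers took 8.84% ± 0.534, and 15 of 15 genes found reached 10 FPKM, against 2910 of all 23354 genes. Of these 15, 2 differed at least 2-fold, against 9.18% of all genes of that level. Below tfa and fetub came ahsg1, another fetuin, at 2690, 3081 and 2523 FPKM. The copper carrier cp was at 2376, 2561 and 3054 FPKM, highest in library 3. The retinol carrier rbp4 was at 3502, 2301 and 1920 FPKM, with library 1 clear of the others, and its span overlaps cep55l. Heme is bound in plasma by hemopexin, and hpx stood at 2245, 2257 and 1716 FPKM. A gene annotated hp, for the hemoglobin carrier haptoglobin, at chr7:56276111-56282910, was the most variable of the list at 107, 182 and 324 FPKM and overlaps sult5a1. A second gene annotated hp on chromosome 8 was steady at 714, 595 and 710 FPKM.

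Protease inhibitors took a steady share, 2.39%, 2.33% and 2.3% of FPKM. The list was led by serpina1l, an antitrypsin-like inhibitor, at 4479, 3998 and 4492 FPKM. Its neighbour serpina1 was at 2425, 3646 and 2538 FPKM, highest in library 2 where serpina1l was lowest. The complement inhibitor serping1 followed at 1293, 1248 and 1206 FPKM. Of the 14 genes that reached 10 FPKM, 0 differed at least 2-fold, against 9.18% of all genes of that level.

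Clotting genes took 2.67% ± 0.13, with a median coefficient of variation (SD over mean) of 6.74%, against 14.1% over all genes of at least 10 FPKM. That coefficient falls with level. The median of the list was 162 FPKM, and all genes of 100 to 1000 FPKM had a median coefficient of 12.2%. The 3 chains of fibrinogen, the precursor of the clot, were near each other: fgb at 4415, 4053 and 4238 FPKM, fga as given above, and fgg at 3343, 3123 and 3131 FPKM. Plasminogen, which dissolves clots, was represented by plg at 1211, 1040 and 1032 FPKM. Of 19 members at 10 FPKM or more, 1 differed at least 2-fold, against 9.18% of all genes of that level. It was f13b, a subunit of the clot-stabilising factor, at 36.1, 32 and 15.2 FPKM, low in library 3.

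Complement genes took 2.19% ± 0.164, and 25 of 33 found reached 10 FPKM, against 2910 of all 23354 genes. The central component gene c3a.1 was at 3604, 3283 and 3363 FPKM. The pore-forming component c9 was at 2255, 2163 and 1959 FPKM and the activating protease cfb at 1676, 1323 and 1374 FPKM. All 3 were highest in library 1, by less than 1.5 times. The gene annotated C7, for another part of the pore, was the most variable at 25.7, 47.9 and 11.3 FPKM, and it overlaps c6.

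Of the acute phase and defence proteins, 5 of the 10 genes at 10 FPKM or more differed at least 2-fold, against 9.18% of all genes of that level. Their share was 1.25% ± 0.109, of which 49% came from zgc:172246. Its neighbour zgc:77778, currently leg1.2, was at 1535, 1995 and 1473 FPKM. The secreted ribonuclease gene rnasel3 was at 695, 802 and 625 FPKM. Its relative rnasel2 was at 715, 489 and 7.69 FPKM, a highest over lowest ratio of 93.1 with library 3 apart, from 13343 reads in library 1 and 124 in library 3. The iron hormone hepcidin, hamp, which blocks iron export from cells, stood at 28.5, 2.52 and 16.3 FPKM. The iron exporter it acts on, slc40a1, stood at 198, 58.6 and 95.2 FPKM, so library 1 was highest and library 2 lowest for both genes.

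Egg yolk precursors were low. Vitellogenins are made by the liver of egg-laying females under estrogen, and the list of vitellogenin and egg envelope genes took 0.00155% ± 0.000261 of FPKM. The gene vtg5 made up 97.7% of it, at 10.24, 7.58 and 8.81 FPKM, and its span overlaps vtg4. The gene si:dkey-4c23.3, currently vtg8, lay between 0.0457 and 0.119 FPKM. The reads of vtg2 numbered 6, 7 and 5 and those of vtg1 numbered 8, 0 and 0, while vtg3 and vtg7 had 0 in every library. Of the estrogen receptors, esr1 was at 0.83, 0.969 and 1.95 FPKM, and esr2b at 12.3, 52.9 and 50 FPKM, lowest in library 1.

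Growth factors and hormones took 0.206% ± 0.0182. The binding protein of insulin-like growth factors igfbp2a led at 248, 256 and 254 FPKM. The pressor hormone precursor agt was at 246, 234 and 271 FPKM, and igfals, a partner of those binding proteins, at 224, 245 and 208 FPKM. The growth factor igf1 itself was lower, at 54.7, 65.8 and 75.8 FPKM. Of 11 members at 10 FPKM or more, 5 differed at least 2-fold, against 9.18% of all genes of that level. The most variable was igfbp1b at 31.1, 5.9 and 17.4 FPKM. In both igfbp1b and igfbp1a, at 102, 41 and 34.7 FPKM, library 1 was the highest, whereas the lipase inhibitor angptl4 was highest in library 3 at 29.5, 20.7 and 81.5 FPKM.

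Sugar metabolism took 2.35% ± 0.286 of FPKM. The dehydrogenase gapdh was at 3275, 4181 and 3478 FPKM and the enolase eno3 at 712, 879 and 806 FPKM. Both were highest in library 2. Enzymes that run toward glucose were also abundant: fbp1b was at 605, 563 and 500 FPKM, and g6pca.2, the phosphatase that releases glucose, at 400, 499 and 266 FPKM. The cytosolic carboxykinase pck1 was the most variable, at 37.6, 111 and 80.2 FPKM, while the mitochondrial form pck2 was at 302, 327 and 374 FPKM. Of 22 members at 10 FPKM or more, 1 differed at least 2-fold, against 9.18% of all genes of that level. The glucose phosphorylating enzyme gck was low, at 1.02, 0.977 and 0.318 FPKM.

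For glycogen, the store of glucose, the phosphorylase pygl was at 401, 461 and 393 FPKM and the synthase gys2 at 88, 87.1 and 107 FPKM. The mutase pgm1 was at 179, 176 and 205 FPKM. The targeting subunit ppp1r3ca, which brings a phosphatase to glycogen, was at 235, 164 and 71.2 FPKM, lowest in library 3. Of 8 members at 10 FPKM or more, 2 differed at least 2-fold, against 9.18% of all genes of that level.

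Of 57 amino acid breakdown genes found, 45 reached 10 FPKM, against 2910 of all 23354 genes. Of the 45, 0 differed at least 2-fold, against 9.18% of all genes of that level. Their median coefficient of variation, 13.3%, was near the 14.1% of all genes. The list took 1.9% ± 0.0964. Its leaders belong to methionine and tyrosine metabolism: ahcy at 1953, 2333 and 2049 FPKM, hpda at 1787, 2041 and 1563 FPKM, and bhmt at 1508, 1554 and 2121 FPKM. The first pair was highest in library 2 and bhmt in library 3. The most variable member was cth, an enzyme of cysteine synthesis, at 12.3, 9.6 and 18.8 FPKM.

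Urea cycle genes had few reads while uric acid genes were present. Most bony fish release nitrogen as ammonia through the gills. The cycle genes cps1 and otc had 0 reads in every library, ASS1 had 1, 0 and 0, and asl was at 2.03, 1.08 and 2.7 FPKM. Glutamate dehydrogenase, which frees ammonia, was represented by glud1b at 393, 414 and 426 FPKM. Glutamine synthetase, glula, was at 40.4, 84.1 and 64.5 FPKM, lowest in library 1, and arg2, a mitochondrial arginase, at 29.2, 29.3 and 21.2 FPKM. The uric acid oxidase gene uox, which is inactive in humans, was at 519, 414 and 446 FPKM. The later enzymes of the same path, urad, urah and allc, lay between 64.8 and 98.0 FPKM in all 3 libraries.

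Fatty acid synthesis and storage took 4.35% ± 1.11, and 89.3% of that was fabp10a. Without it the desaturase fads2, which makes long polyunsaturated fatty acids, led at 2082, 2221 and 1807 FPKM. The malic enzyme me1, a source of reducing power, was at 292, 167 and 146 FPKM, highest in library 1. Fatty acid synthase itself was modest, with fasn at 11.3, 12.1 and 20.6 FPKM. The binding protein fabp1b.1 was the most variable, at 32.9, 8.82 and 2.62 FPKM. Of 16 members at 10 FPKM or more, 3 differed at least 2-fold, against 9.18% of all genes of that level.

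Of 35 fat oxidation and ketone genes found, 31 reached 10 FPKM, against 2910 of all 23354 genes. Of the 35, 3 were under 1 FPKM in every library. Of the 31, 0 differed at least 2-fold, against 9.18% of all genes of that level, and their median coefficient of variation was 8.99% against 14.1%. The leaders were scp2a, a peroxisomal sterol and lipid carrier, at 713, 560 and 460 FPKM, and acadm and acaa2 of the mitochondrial pathway, at 254, 269 and 250 and at 181, 199 and 261 FPKM. The nuclear receptor pparaa, which drives such genes in mammals, varied most at 16.3, 8.52 and 11.1 FPKM. The uncoupling protein gene ucp1, a mitochondrial proton carrier named here after its level was seen, was at 2278, 2830 and 2314 FPKM, rank 32 of all genes, and its span overlaps commd1.

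Cholesterol genes were low, with 0.082% ± 0.0134. The low-density lipoprotein receptor ldlra led and varied most, at 69.8, 208 and 195 FPKM, with library 1 well below the others. The synthesis enzymes msmo1 and cyp51 were at 47, 40.6 and 58 FPKM and at 35.9, 46.3 and 47.6 FPKM. Bile acid genes took 0.225% ± 0.00782. The acyl carrier ligase slc27a2a was at 325, 435 and 378 FPKM, the uptake carrier slco1d1 at 384, 347 and 369 FPKM and the exporter subunit slc51a at 134, 112 and 183 FPKM. The bile acid sensor nr1h4 varied most, at 30.7, 15.4 and 16.5 FPKM, highest in library 1.

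Cytochrome P450 enzymes of families 1 to 4 oxidise drugs, steroids and fatty acids. Of 49 such genes found, 24 reached 10 FPKM, against 2910 of all 23354 genes. Of these 24, 3 differed at least 2-fold, against 9.18% of all genes of that level. The leaders were cyp2k22 at 411, 453 and 434 FPKM, cyp2ad2 at 436, 317 and 252 FPKM, and the aryl hydrocarbon response gene cyp1a at 271, 229 and 222 FPKM. The most variable, cyp2p9, was at 57, 22.3 and 65.9 FPKM, low in library 2. Of the conjugation enzymes that follow them 0 of 20 differed at least 2-fold, with 9.18% of all genes of that level doing so, and their median coefficient of variation was 13.2%, near the 14.1% of all genes. The glutathione transferase gstt1a led at 407, 521 and 459 FPKM, followed by gstp1 at 278, 266 and 374 and gstr at 320, 259 and 282 FPKM. The most variable of these was comtb, at 11.6, 17.3 and 10.6 FPKM.

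Peroxide, uric acid and iron genes took 1.61% ± 0.0443. Of 25 at 10 FPKM or more, 1 differed at least 2-fold, the exporter slc40a1 above, against 9.18% of all genes of that level. Of the summed FPKM of the list 50% was gpx4a, which reduces lipid peroxides, at 4215, 5204 and 4783 FPKM. Catalase, cat, was at 1586, 1550 and 1464 FPKM and the peroxiredoxin prdx2 at 537, 568 and 498 FPKM.

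Related genes were compared in pairs. Zebrafish keep many gene pairs from a genome duplication in the fish lineage. The pairs here also hold other related genes, and the origin of each pair was not tested. In 36 pairs of related genes, the first-named was higher in every library in 33, the order differed between libraries in 2 and the second was higher in every library in 1. The excess was at least 10-fold in every library in 16 pairs, and in 2 pairs the second gene was at 0 in at least 1 library. The pairs were named with the liver form first where one is known, so the counts describe that choice.

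The lactate dehydrogenase ldhbb was 495 to 986 times ldha. The glycogen synthase gys2 was 46.1 to 51.2 times gys1, a narrow range, while the pyruvate kinase PKLR was 52.4 to 143 times pkma. The apolipoprotein apoa1b was 12.3 to 21.3 times apoa1a, and the glutamate dehydrogenase glud1b 18.8 to 24.6 times glud1a. In contrast f7i and f7, related genes of the clotting list, were level, at 0.971 to 1.12. The nuclear receptor pparab was the only first-named gene below its partner in every library. It was at 2.13, 5.83 and 9.21 FPKM against 16.3, 8.52 and 11.1 FPKM for pparaa. Genes of near-identical sequence can share reads, so low values of a copy are uncertain.

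**Figure D3:**
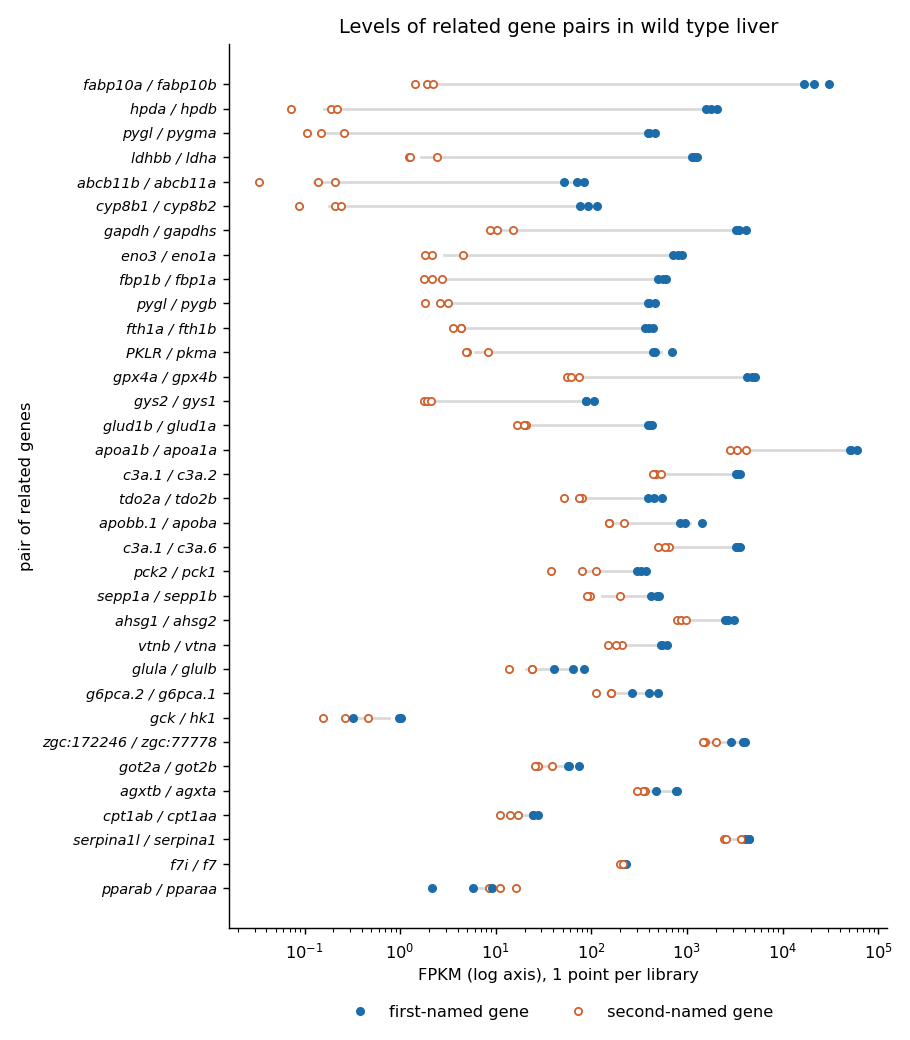
FPKM on a log axis of the first-named (filled) and second-named (open) gene of 34 pairs, with 1 point per library; the 2 pairs with a second gene at 0 are left out. The gap spans several decades for fabp10a and fabp10b and closes for f7i and f7.

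Hepatocyte transcription factors took 0.14% ± 0.00663, and 19 of 37 reached 10 FPKM, against 2910 of all 23354 genes. The leaders were cebpd at 138, 127 and 87.5 FPKM, xbp1, which controls secretory capacity, at 78.8, 71.5 and 80.5 FPKM, and cebpb at 61.9, 71.5 and 96.4 FPKM. Library 3 was the highest for cebpb and the lowest for cebpd. The nuclear receptor hnf4a, a master regulator of hepatocytes, was at 31.6, 41.8 and 36 FPKM. Its paralog hnf4b, listed under the clone name CABZ01057488.2, was at 74.6, 71.3 and 71.8 FPKM. Of the 19 factors at 10 FPKM or more, 1 differed at least 2-fold, esr2b above, against 9.18% of all genes of that level.

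Folding genes of the endoplasmic reticulum, where secreted proteins mature, took 0.375% ± 0.0104. They were led by the disulfide isomerases p4hb at 308, 248 and 278 FPKM and pdia3 at 231, 206 and 214 FPKM, and by the channel subunit sec61a1 at 171, 159 and 174 FPKM. Of 28 members at 10 FPKM or more, 1 differed at least 2-fold, against 9.18% of all genes of that level. It was the chaperone calr at 30.1, 13.6 and 20.3 FPKM.

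Clock genes at 10 FPKM or more had a median coefficient of variation of 36.3%, against 14.1% over all genes, and 4 of these 8 differed at least 2-fold, against 9.18%. The collection time of the fish is not in the labels. The repressor cry1ba led at 71.1, 73.2 and 91.1 FPKM, followed by nr1d2a at 40.5, 83.8 and 49.4 FPKM and cry1bb at 28.2, 32.1 and 32.6 FPKM. The light and clock response gene bhlhe40 varied most, at 40.6, 5.04 and 7.66 FPKM, highest in library 1. Of the early response and heat shock genes 4 of 11 did so, with the same 9.18% of all genes. They were led by the chaperone hspa8 at 838, 811 and 856 FPKM and the glucocorticoid response gene fkbp5 at 164, 325 and 274 FPKM. The transcription factor gene junbb was at 233, 277 and 75.7 FPKM, low in library 3.

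Mitochondrially encoded genes were highest in library 1. The oxidase subunit mt-co1 was at 12941, 10289 and 10570 FPKM and mt-atp6 at 5034, 3006 and 3417 FPKM. Gene length below is the length by which FPKM divides the reads, solved from the values, and not the genomic span. Short genes were lower in library 1: among genes with a mean of at least 10 FPKM and at most 500 bases long, 62 in all, the median log2 difference of library 1 from the other libraries was -0.45, against -0.15 for 368 genes of 500 to 1000 bases, -0.07 for 1097 of 1000 to 2000 bases and -0.03 for 1236 of 2000 to 5000 bases. The ribosomal protein gene rps29, 346 bases long, was at 188, 463 and 430 FPKM. Ribosomal protein genes were also lower in library 1, and their difference too was larger for shorter genes. The median log2 difference was -0.62 for 5 genes of at most 500 bases and -0.31 for 28 of 500 to 1000 bases. For 43 of 1000 to 2000 bases it was -0.26, and for 5 of 2000 to 5000 bases it was -0.09. In the same groups the difference of library 2 from the others was 0.47, 0.28, 0.29 and 0.2. That of library 3 was 0.15, -0.03, -0.03 and -0.07. Each difference is taken from the other libraries, so that of library 1 also holds the excess of library 2. For fabp10a the gene length was 525 bases, and the part of length in its difference between libraries was not tested.

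Medians of the other cell type lists were far below that of the hepatocyte list. In the counts below a gene reached 10 FPKM by its mean over the 3 libraries, as 2910 of all 23354 genes did. Among the lists well above that share were those of cholangiocytes, erythrocytes, macrophages and enterocytes. Of the cholangiocyte list, for bile duct cells, 7 of 17 reached 10 FPKM. The keratin krt8 was at 218, 257 and 233 FPKM, krt18 at 221, 197 and 194 FPKM and anxa4 at 209, 181 and 201 FPKM. The biliary factor sox9b was at 3.68, 1.86 and 3.45 FPKM and the surface protein epcam at 7.72, 4.75 and 7.47 FPKM, both lowest in library 2. The remaining members of this level were lgals2b, atp1b1a, tm4sf4 and hnf1ba, from 9.46 to 80.8 FPKM.

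Endothelial genes reached 10 FPKM in 1 of 24, the vascular growth factor receptor kdrl at 13.1, 11.5 and 13.5 FPKM, the junction cadherin cdh5 was at 3.03, 2.54 and 2.41 FPKM, and kdr at 1.33, 1.44 and 1.83 FPKM. Stellate cells store vitamin A. Of their list 1 of 20 reached 10 FPKM, steap4 at 36.8, 32.4 and 44.9 FPKM, while the defining hand2 was at 1.84, 0.953 and 2.24 FPKM and lrata, which esterifies retinol, at 7.21, 7.09 and 13.2 FPKM. The collectin gene colec11 was at 6.99, 8.06 and 7.09 FPKM. Erythrocyte genes reached 10 FPKM in 9 of 20, led by the globin hbaa1 at 282, 351 and 338 FPKM. Others were zgc:92880, currently the globin hbba2, creg1, si:dkey-25o16.2, cahz, si:ch211-5k11.6, blvrb and nt5c2l1, from 12.2 to 77.8 FPKM. The heme synthesis gene alas2 was steady at 16.4, 16.3 and 18.3 FPKM.

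Macrophage genes reached 10 FPKM in 6 of 23. Library 3 was the highest in 18 of the 23 found, where it was the highest for 45.3% of all genes above 0. The antigen presentation chaperone cd74a was at 198, 175 and 284 FPKM, cd74b at 47.9, 37.1 and 84.5 FPKM, and the lysosomal gene listed as si:ch211-212k18.7, currently cd68, at 160, 144 and 158 FPKM. The proteases lgmn and ctss2.2 and the complement subunit c1qc lay between 10.9 and 39.3 FPKM. The macrophage pore protein gene mpeg1.1 was at 5.34, 4.75 and 10.5 FPKM and the scavenger receptor marco at 5.18, 7.41 and 9.33 FPKM. In 1 of the 23, library 3 was at least 2 times the next library, against 11% of all genes above 0. This list too was chosen with earlier results of these data known, so its counts are a description.

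T and natural killer cell genes reached 10 FPKM in 0 of 15, B and plasma cell genes in 0 of 9, skeletal muscle genes in 0 of 17 and germ cell genes in 0 of 12. The B cell receptor gene cd79a was at 0.373, 0.0843 and 1.04 FPKM and the T cell coreceptor cd4-1 at 0.508, 0.109 and 0.475 FPKM. The muscle genes ckma, ckmb and actc1b lay between 0 and 0.185 FPKM. The germ cell genes ddx4 and piwil1 were at 0 in every library and dazl at 0, 0 and 0.0246 FPKM. Of the neutrophil list, 2 of 15 reached 10 FPKM, srgn at 13.4, 16 and 15.6 FPKM and cpa5, a digestive enzyme gene that is also on the pancreas list, at 106, 10.8 and 14.1 FPKM. The granule enzyme mpx was at 5.5, 0.608 and 2.51 FPKM, the lysozyme lyz at 1.62, 2.11 and 1.08 FPKM, and mmp9 below 1 FPKM in each library. In the thrombocyte list, fn1b, a fibronectin of plasma, was the one member above 10 FPKM, at 749, 801 and 806 FPKM, while itga2b, which defines these cells, was at 0.669, 0.94 and 0.252 FPKM and gp1bb at 1.92, 3.05 and 3 FPKM. In the adipocyte list the lipase lpl stood alone above 10 FPKM, at 288, 292 and 318 FPKM, while the lipid droplet gene plin1 lay between 0.0718 and 0.124 FPKM. Enterocyte genes reached 10 FPKM in 3 of 10, pck1 above, slc26a3.2 at 34.9, 26.2 and 18.5 FPKM and fabp2 at 25.7, 4.94 and 4.26 FPKM. Of these, fabp2 was above 10 FPKM in library 1 only. The brush border gene vil1 lay between 0.0594 and 0.361 FPKM.

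**Figure D4:**
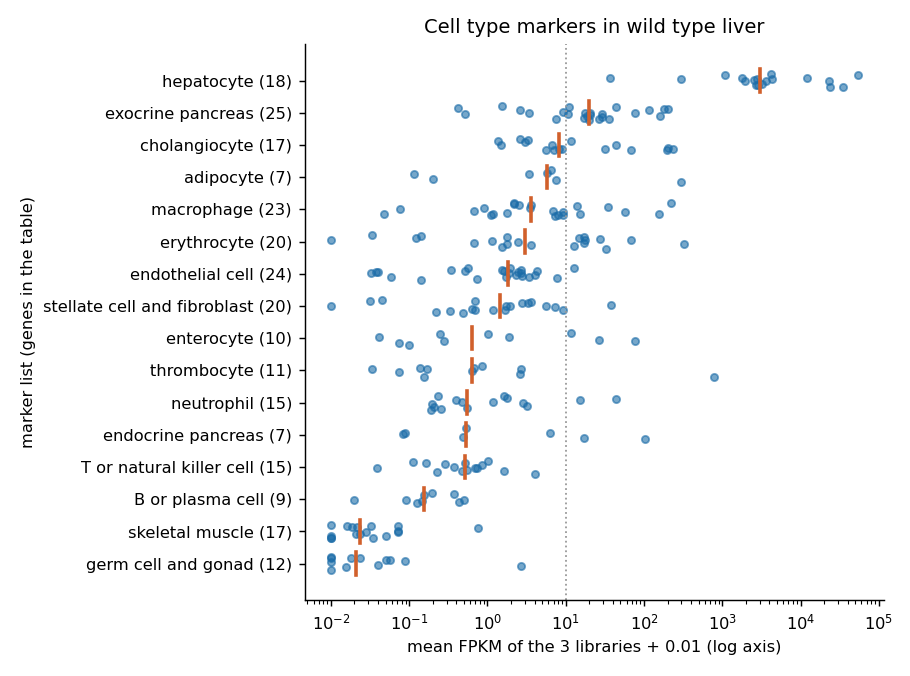
Mean FPKM over the 3 libraries plus 0.01, on a log axis, of every found member of each cell type list (points), with the list's median (bars) and 10 FPKM (dotted line). The hepatocyte median of 3034 FPKM stands far to the right of the others, and muscle and germ cell genes lie at the left.

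Pancreas genes set library 1 apart. Of the exocrine list, which holds digestive enzymes, 18 of 25 had a mean of at least 10 FPKM. The median of the list was 45.4, 7.59 and 6.32 FPKM, so some members passed that mean only through library 1. The sum of the list was 2451, 393 and 343 FPKM. Library 1 was the highest in 25 of the 25 found and at least 2 times the next library in 24. Of all genes above 0 it was the highest in 33.6% and at least 2 times the next in 9.63%. The list was chosen with earlier results of these data known, so these counts describe it and test nothing. The trypsin genes prss59.1 and try were at 483, 67.9 and 58.3 FPKM and at 412, 70.9 and 56.5 FPKM. The chymotrypsin ctrb1 was at 268, 46.2 and 37.5 FPKM, the elastase ela3l at 170, 34.3 and 26.4 FPKM and the amylase amy2a at 59.4, 11.3 and 8.14 FPKM. In these 5 genes library 1 was far above, and libraries 2 and 3 were close to each other. Other members with a mean of at least 10 FPKM were prss59.2, cpa5, ela2, ela2l, cpb1, cel.1, cel.2, ctrl, sycn.1, pla2g1b, zgc:136461, zgc:112160 and zgc:92590. Their values in single libraries ran from 0.62 to 368 FPKM, and library 1 was the highest for each.

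Hormones of the endocrine pancreas separated all 3 libraries. Insulin, ins, was at 272, 37.9 and 0.734 FPKM, from 2571, 317 and 6 reads. Somatostatin, sst1.1, was at 45.1, 6.77 and 0.0856 FPKM, with 1 read in library 3. The glucagon gene gcgb was at 17.2, 1.47 and 0 FPKM. Library 2, whose exocrine levels were close to those of library 3, thus stood well above it for each hormone. The second glucagon gene, gcga, was at 1.2, 0.25 and 0 FPKM. Together the pancreas lists made up 0.484%, 0.0737% and 0.0587% of FPKM. Their part in other differences of library 1 was not tested.

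Cell division genes were low and highest in library 3. Library 3 was the highest in 28 of the 28 genes found, and at least 2 times the next library in 24. Of all genes above 0 it was the highest in 45.3% and at least 2 times the next in 11%. The 28 genes were chosen with earlier results of these data known, so the counts describe them and test nothing. Most of these genes were low, with 6 of 28 at 1 FPKM or more in every library, against 9669 of all 23354 genes. The replication clamp pcna was at 5.28, 3.92 and 17 FPKM and the kinase cdk1 at 0.6, 0.0847 and 4.43 FPKM. The chromatin protein hmgb2a was at 20.2, 14.1 and 32 FPKM. Of the genes annotated ube2c, for a ubiquitin-conjugating enzyme of mitotic exit, 1 was at 4.3, 5.35 and 5.68 FPKM. Its neighbour was at 0.332, 0.25 and 3.52 FPKM. Summed levels were 44.3, 36.7 and 117 FPKM. Macrophage genes were also highest in that library, as given above.

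**Figure D5:**
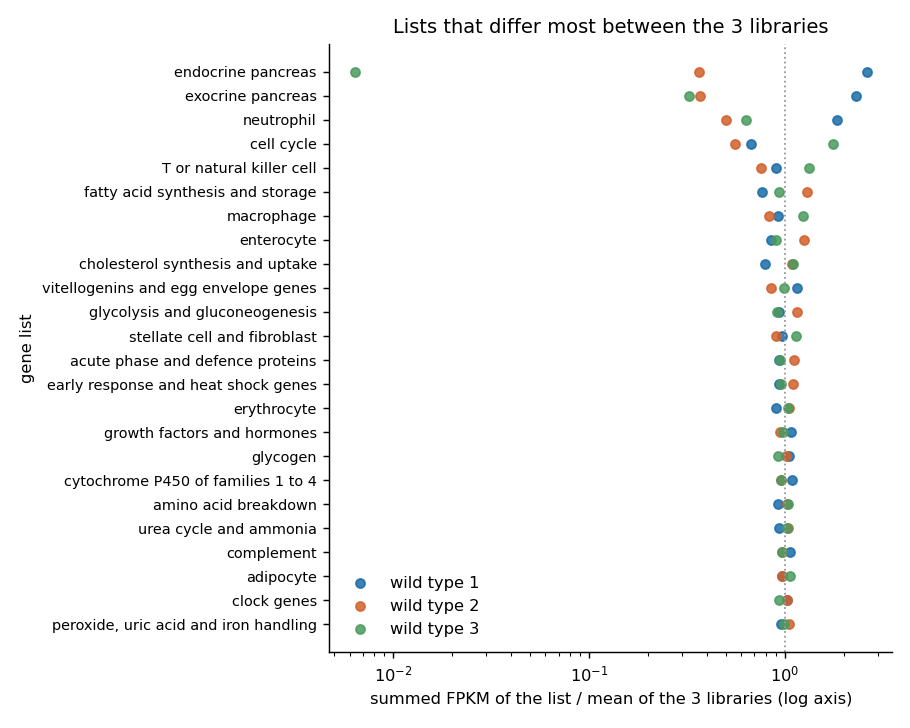
Summed FPKM of a gene list in each library over the mean of the 3 libraries, on a log axis, for the 24 lists with the widest spread among those that reach 5 FPKM in a library. Library 1 stands to the right for both pancreas lists and for the neutrophil list, which shares cpa5 with the pancreas, and library 3 for the cell cycle list. The lists lower in the plot lie closer to 1.

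Among 2910 genes with a mean of at least 10 FPKM, 267, or 9.18%, differed at least 2-fold between the highest and lowest library. Among 21554 genes above 0, libraries 1, 2 and 3 stood at least 2 times above the next in 9.63%, 4.86% and 11%. Of the 267 genes, library 3 was the highest in 112, library 1 in 86 and library 2 in 69. Of all 2910 genes of that level these libraries were the highest in 48%, 27.9% and 24.2%, so the order of the counts is also that of all genes. Library 1 was the lowest in 125 of the 267. How often it was the lowest over all 2910 genes was not counted, so 125 cannot be called particular to these genes. Without library 1 the count was 96, without library 2 it was 179 and without library 3 it was 149, each over the remaining pair. The median coefficient of variation was 14.1%. It fell with level, from 19.2% at 1 to 10 FPKM and 14.5% at 10 to 100 FPKM to 12.2% at 100 to 1000 FPKM and 12% above. Counting error of the reads alone would give 8.84%, 3.64%, 1.18% and 0.409% in these bins. As a check for a library deposited more than once, chi-square values over degrees of freedom were 42 for libraries 1 and 2, 40.7 for 1 and 3 and 28.2 for 2 and 3, so each was counted as its own sample. Pearson correlations of log2(FPKM + 1) over 10830 genes, which are not independent, were 0.971 for libraries 1 and 2, 0.964 for 1 and 3 and 0.973 for 2 and 3.

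The genes with the largest ratios beside ins, sst1.1, rnasel2, fabp1b.1 and hamp were of mixed kind. The ratio of sst1.1 was 527, with a 95% counting interval of 94.2 to 20837, and that of ins was 371, with 170 to 1011. The lipase genes cel.2, at 25.8, 1.21 and 4.58 FPKM, and cel.1, at 72.4, 8.68 and 5.68 FPKM, belong to the exocrine list. A gene annotated afp4 at chr16:45937437-45943334 was at 28.5, 3.23 and 0.627 FPKM, while a second gene of that name beside it was at 2293, 1715 and 1315 FPKM. The peptide hormone gene calca was highest in library 3, at 1.47, 2.67 and 42.4 FPKM. The polyamine enzyme gene odc1 was low in library 1, at 4.68, 34.4 and 54.1 FPKM.

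Some regulators, named here after their values were seen, also separated the libraries. The transcription factor gene foxo1a, which responds to insulin signalling, was at 3.72, 8.48 and 39 FPKM, and the coactivator ppargc1a, which raises mitochondrial and glucose-producing genes in mammals, at 1.28, 2.2 and 18.5 FPKM, both highest in library 3. The growth regulator mycb was at 149, 162 and 34.4 FPKM, lowest in library 3. The thyroid hormone activating enzyme dio2 was at 307, 693 and 581 FPKM, lowest in library 1.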

How the data were processed

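Wild type AB liver libraries of the series were used, 3 of 6, grouped by the genotype label. The authors deposited FPKM values for all genes; per the submitters' processing notes the build was GRCz11 and DESeq2 was among the tools, while the aligner, the counter and the annotation were not given in the sources used here. Per the labels' protocols, TRIzol and a column served for extraction. Strand use in counting is not stated, so genes with overlapping spans may share reads, among those named eno3, g6pca.2, apobb.1, apoa1a, cp, c9, bhmt, agxtb, gpx4a, cyp2k22, cyp2ad2, gstt1a, slc27a2a, cyp51, hspa8, pck1, uox, f7i, agt and mt-atp6.

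Within a gene the deposited FPKM are whole multiples of 1 read's worth, so depth and gene length could be solved for. The 3 mutant columns served only to fix gene length. All 21554 genes above 0 gave whole reads (relative tolerance 1e-11). Whole values do not fix a factor common to all libraries of a gene, so reads of a few genes may be off by such a factor. Reads gave the limits (3 reads) and counting intervals (95%, exact binomial), which cover counting error only.

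No test between groups was run, since there is 1 group; a chi-square of recovered reads per pair of libraries served as a check for duplicate deposits. Lists held 999 entries in 40 lists, of which 937 were found, 70 under another name, 910 different genes in all. Members and lists were chosen with earlier results of these data known. Named genes were the 20 of highest mean, the 3 highest and the most variable member of each list, the 10 named genes with the largest ratio among those of at least 10 FPKM, and of cell type lists the members of at least 10 FPKM and the first 3 members. A gene under this rule is not reported here. Genes outside this rule were chosen after their values were seen. They include fbp1b, g6pca.2, pck2, igfbp1a, angptl4, esr1, asl, gck, fasn, uox, igf1, hnf4a, hnf4b, hpx, urad, urah, allc, cdk1, apobb.1 and vtg1. Alternatives were other filters, scalings, denominators, a pseudocount of 1 FPKM and each library left out. Python 3.11.15, pandas 2.3.3, numpy 2.4.6, scipy 1.17.1 and matplotlib 3.10.9 were used.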

Additional observations from a re-analysis of the deposited data

How the results depend on the processing

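No paired analysis was possible because only 1 group was described and no test between groups was run. Of 44 alternative values for the main results, 33 stayed within 1 SD or 1.5 times and 11 moved. Shares with 1 library left out could only stay, since a mean over 3 libraries cannot move by 1 SD in that way. The share of the 10 most abundant genes was 31.8% over nuclear genes and 24.6% of reads not scaled to length. The secreted share was 40.5% over nuclear genes and 20.9% when genes were taken from the deposited gene ontology annotation of the extracellular region or space, an alternative added after seeing the data. The mitochondrial share was 4.4% of reads not scaled to length. Detected genes numbered 14691 at 0.1 FPKM and 2490 at 10 FPKM. Genes differing at least 2-fold numbered 1740 at a mean of 1 FPKM and 37 at 100 FPKM, and 96 to 179 with a library left out, where a ratio over a pair replaces a ratio over 3. Median scaling, quantile normalization, the pseudocount and leaving out the pancreas lists gave 266, 259, 243 and 247. The cause of the other shifts was not tested. Of 160 list shares under alternatives 138 stayed within 1 SD and 22 moved. List shares with 1 library left out again could only stay, so this count does not measure stability. Without library 1 the exocrine pancreas share went from 0.183% to 0.0622% and was counted as staying. Of 90 highest over lowest ratios of named genes under alternatives 90 kept their side of 2-fold. These genes were the most abundant ones and those with the largest ratios, so few stood near 2-fold. The nearest as deposited were fabp10a at 1.83 and cbln8 at 2.27, while the genes chosen for large ratios began at 11.3, for hamp. The count of 90 thus follows largely from the choice of genes and does not measure stability. Having 3 libraries and unknown numbers of fish limit every spread given.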
